A study of Mus musculus with 12 samples.

Results

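AP-1 and EGR immediate-early genes were examined in bone marrow-derived macrophages (BMMs) by RNA-Seq. The genes were taken by symbol: Fos, Fosb and Fosl2 of the FOS family, Jun, Junb and Jund of the JUN family, the bZIP factor Atf3, the zinc finger factors Egr1 and Egr3, and the rapidly induced regulator Ier2. All 10 were found among the 38887 genes measured in each of 12 libraries. The study compared WT with IGF2BP2 KO macrophages, without treatment (M0) and after IL-4 (M2), with 3 mice per genotype and 1 M0 and 1 M2 library from each mouse.

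BMMs of both genotypes were grown for 6 days from the marrow of mice 3 to 4 months old in medium with 50 ng/ml M-CSF, which was also present during the experiment. M2 cells received 20 ng/ml IL-4 for 8 h. In KO mice, exons 4 and 5 of Igf2bp2 carried flanking loxP sites, and Cre was driven by Lyz2, a gene of myeloid cells. WT mice were littermates with no floxed allele, of which some carried Cre and some did not. Which WT mice carried Cre is not given in the sources used here, so that an effect of Cre and of the loss of IGF2BP2 cannot be told apart.

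AP-1 is a dimer of a JUN protein with a FOS, JUN or ATF protein that binds DNA through a basic leucine zipper. Immediate-early genes are transcribed within minutes of a signal, without new protein synthesis, when MAP kinases act on SRF with its TCF partners and on CREB that are already bound at their promoters. Their transcripts are short-lived, and in macrophages they are best known from the response to growth factors, adhesion and inflammatory stimuli, whereas IL-4 signals mainly through STAT6.

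Totals per library lay between 20011792 and 39632770 counts, lowest in WT M2. For each gene, the expected count (the estimated number of reads) was expressed as CPM, a count scaled to the size of its library after TMM normalization with edgeR. TPM, which is also scaled to transcript length, was used where genes were compared with each other. Igf2bp2 was at 84.9 to 95.9 CPM in KO and 76.5 to 118 CPM in WT M0, and at 129 to 146 CPM in KO and 178 to 233 CPM in WT M2. Counts of the whole gene include the exons that remain, so these values do not check the deletion. Over all genes, the WT libraries of mouse 3 (M0 and M2) and the KO M2 library of mouse 1 stood apart from the other libraries of their groups. The mean chi-square per gene between these libraries and the others of their group was 14.3 to 37.9, against 4.51 to 8.29 for all other pairs within groups. For the AP-1 and EGR genes, values without each of these 3 libraries are given where they change a call. For named genes of the other lists, the number of fits that lost a call is given in place of these values, and calls gained without a library are not listed. The 6 macrophage markers were detected in every library, with Mertk low at 4.52 to 8.09 CPM and a sum of 4327 to 5625 CPM, and the 3 T cell markers were at 0 in all of them. Stromal markers (Col1a1, Col1a2, Col3a1, Dcn and Pdgfra) were detected at 5 of 5 in each group and summed to 7.94 to 30 CPM in KO against 29.8 to 53.3 CPM in WT in M0, and to 9.02 to 26.6 CPM in KO against 32.8 to 60.2 CPM in WT in M2. The neutrophil markers, with Ly6g at 0 throughout, summed to at most 8.90 CPM. Their part in the differences between genotypes was not tested. In such bulk samples fewer cells of a type and less RNA per cell cannot be told apart.

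All 120 expected counts of the 10 genes were whole numbers within 0.005, against 86.0% of the values of all genes tested. The counts thus gave no sign of reads divided with other genes. Reads given wholly to a wrong gene would also leave whole numbers. On GRCm38 (GENCODE M21), Junb (chr8:84974484-84978718) overlaps the end of Prdx2 on the opposite strand by 351 bases, Jun (chr4:95049034-95052222) overlaps the antisense gene Junos by 689 bases, Jund (chr8:70698949-70700616) overlaps the antisense gene Gm11175 by 919 bases, and Atf3 (chr1:191170296-191218039) overlaps Gm24748 by 108 bases. The libraries were directional, but whether the counting used the strand is not given in the sources used here. Prdx2 was at 148 to 191 CPM and was called in no comparison. Junos, which was called with IL-4 in KO (log2 fold change 0.78, edgeR adjusted p = 0.0274), and Gm11175, which was not called, did not exceed 2.51 CPM, and Gm24748 was at 0.

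Promoter sequences of 300 bases (RefSeq, GRCm38.p6, which end 50 bases after the start of transcription) were found for 7 of the 10 genes, Fos, Fosb, Fosl2, Jun, Junb, Jund and Atf3. They were searched on both strands for the CArG box bound by SRF, the CRE TGACGTCA, the CRE-like site TGACATCA, the AP-1 site TGANTCA, the EGR site GCGTGGGCG and the STAT6 site (TTC and GAA, 4 bases apart), which occurred in 1.63%, 1.79%, 3.62%, 7.81%, 0.612% and 6.95% of 32851 promoters. A single match was found, the CRE-like site of Jun, which starts 45 bases before the start of transcription. It is shown with the motif in capitals, on the strand of the gene (minus), at chr4:95052249-95052278.
Jun: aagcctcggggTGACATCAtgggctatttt
The search says only that the other letters are not in these windows. Egr2, an EGR gene outside the list, was searched as well because it is described with the EGR genes. It has 2 listed promoters, and each held a CArG box (in capitals, plus strand) 72 bases before the start of transcription, at chr10:67537484-67537513 and chr10:67537787-67537816.
Egr2, first promoter: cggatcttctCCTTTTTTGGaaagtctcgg
Egr2, second promoter: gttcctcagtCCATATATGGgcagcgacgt

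Because short-lived transcripts often carry AU-rich elements, the 3′UTR of each gene was searched for the nonamer TTATTTATT on the sense strand. This search was added after the data were seen. For each gene the GENCODE M21 transcript with the longest coding sequence was taken. The nonamer occurred in 838 of 11659 genes tested (7.19%) and, among genes with a 3′UTR of 485 to 4653 bases like those of the 10 genes, in 660 of 7684 (8.59%). It was present once each in Fos and in Fosl2 and not in the other 8. The 30-base windows, with the nonamer in capitals, lie at chr12:85477103-85477132 and chr5:32156871-32156900, both on the plus strand.
Fos: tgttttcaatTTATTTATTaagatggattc
Fosl2: atttattttaTTATTTATTttaaatgttta
The 3′UTR of Fos has 815 bases and that of Fosl2 4653 bases, and the pentamer ATTTA occurred 4.91 and 1.72 times per kb. These FOS family genes with the nonamer moved in opposite directions with IL-4, as described next.

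Of the 10 genes, 9 passed the filter on low counts, and 8 of these 9 were called at an adjusted p under 0.05 with IL-4 in WT as well as in KO macrophages, where IL-4 changed 50.0% and 52.8% of the 12846 genes tested. In WT, 4 rose and 4 fell, against 24.9% of all genes higher and 25.1% lower. In KO, 5 rose and 3 fell, against 26.8% higher and 26.0% lower. The median log2 fold change over the 9 genes was -0.03 in WT and 0.23 in KO, beside -0.01 and 0.01 over all genes tested. Thus there was no common direction: Fosl2, Atf3, Jund and Jun rose in both genotypes, and Fos, Egr1 and Ier2 fell in both. The values did not overlap between M0 and M2 for 8 of the 9 genes in either genotype, as was the case for 55.2% of all genes in WT and 63.4% in KO. Numbers of calls in this and the following paragraphs come from edgeR (quasi-likelihood test), with p adjusted over all genes. With limma on log2(TPM + 1), more genes were lower than higher (2277 higher and 3432 lower in WT, 2290 and 3555 in KO), against 3202 and 3226 in WT and 3438 and 3346 in KO with edgeR.

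Fos, the best known dimer partner of JUN proteins, was at 247, 223 and 197 CPM in the 3 WT M0 libraries and at 55.4, 47.4 and 42.2 CPM in the WT M2 libraries of the same mice. In KO it was at 169.9, 152 and 152 CPM in M0 and at 44.2, 27.5 and 28.3 CPM in M2. All M2 libraries were thus far below all M0 libraries. With IL-4 it fell, the log2 fold change being -2.20 (SE 0.16, edgeR adjusted p = 1.84e-07) in WT and -2.25 (SE 0.16, edgeR adjusted p = 1.35e-07) in KO. All 3 mice of each genotype showed the decrease, by log2 changes between -2.24 and -2.16 in WT and between -2.47 and -1.94 in KO.

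Fosb encodes a close relative of Fos and was hardly expressed. Per library it had 31 to 35 counts (WT) and 7 to 31 counts (KO) in M0, and 2 to 7 counts (WT) and 6 to 18 counts (KO) in M2. It fell with IL-4 in WT (log2 fold change -2.48, SE 0.54, edgeR adjusted p = 0.00200), and in KO the change was -0.83 (SE 0.47, edgeR adjusted p = 0.163). At these counts, in KO mouse 1 the M2 value of 0.339 CPM was above the M0 value of 0.257 CPM, while the other KO mice were lower in M2.

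Fosl2 encodes FRA-2, a FOS protein that lacks the strong transactivation domain of FOS. Its values were 63.7, 61.8 and 57.8 CPM in WT M0 and 62.2, 65.1 and 61.4 CPM in KO M0. After IL-4, the WT libraries held 329.9, 328 and 282 CPM, and the KO libraries held 273, 291 and 279 CPM. Each M2 library was more than 4-fold above each M0 library, and M0 libraries of both genotypes lay within a narrow range. Fosl2 rose on the log2 scale by 2.36 (SE 0.07, edgeR adjusted p = 2.89e-11) in WT and 2.16 (SE 0.07, edgeR adjusted p = 5.36e-11) in KO, the largest increase among the 9 genes tested in both genotypes.

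Jun, the JUN protein with the strongest transactivation, hardly varied. It was at 188, 184 and 189 CPM in WT M0 and at 229, 220.3 and 209 CPM in WT M2, and the KO values were 191, 183 and 181 CPM in M0 and 235, 204 and 210.3 CPM in M2. M2 libraries were above M0 libraries in both genotypes, by little. The log2 fold changes were 0.23 (SE 0.06, edgeR adjusted p = 0.00387) in WT and 0.23 (SE 0.06, edgeR adjusted p = 0.00390) in KO, and all 6 mice showed an increase. Its promoter is the one that held the CRE-like site.

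Junb, which is often described as an antagonist of JUN, was at 114, 126 and 122 CPM in WT M0 and at 115, 122 and 119 CPM in WT M2, so that these groups overlapped. In KO it was at 106, 100.5 and 92.5 CPM in M0 and at 145, 123 and 117 CPM in M2, without overlap. In WT the log2 fold change with IL-4 was -0.03 (SE 0.08, edgeR adjusted p = 0.814), with a 95% confidence interval of -0.19 to 0.14. In KO Junb rose by 0.37 (SE 0.08, edgeR adjusted p = 0.00124). Single WT mice changed by 0.01, -0.05 and -0.04, and single KO mice by 0.46, 0.29 and 0.34. The difference between the genotypes in this response is given below with its own test.

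Jund encodes the JUN protein that is usually present before stimulation. Its values were 57.8, 54.1 and 75.9 CPM in WT M0 and 161, 160.5 and 198 CPM in WT M2. In KO they were 78.6, 80.4 and 75.2 CPM in M0 and 252, 220.5 and 206 CPM in M2. WT mouse 3 had the highest value of its group in both M0 and M2, and M2 values were above M0 values throughout. Jund rose on the log2 scale by 1.47 (SE 0.12, edgeR adjusted p = 6.03e-07) in WT and 1.53 (SE 0.12, edgeR adjusted p = 3.17e-07) in KO.

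Atf3, a stress-inducible bZIP factor that dimerizes with JUN proteins and represses many inflammatory genes, was at 165, 164 and 154 CPM in WT M0 and at 428.5, 449 and 391 CPM in WT M2. In KO it was at 147, 152 and 154 CPM in M0 and at 455, 434 and 423 CPM in M2. M0 and M2 libraries were well separated in both genotypes. The log2 fold change was 1.39 (SE 0.06, edgeR adjusted p = 6.84e-10) in WT and 1.54 (SE 0.06, edgeR adjusted p = 2.45e-10) in KO.

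Egr1, a zinc finger activator induced by growth factors, was low. It was at 4.79, 4.70 and 5.57 CPM in WT M0 and at 3.59, 3.56 and 4.35 CPM in WT M2, and in KO at 6.58, 7.32 and 6.28 CPM in M0 and at 3.69, 4.86 and 4.15 CPM in M2. The M2 libraries were below the M0 libraries in each genotype. Egr1 fell in WT by 0.39 (log2 fold change -0.39, SE 0.14, edgeR adjusted p = 0.0335) and in KO by 0.66 (log2 fold change -0.66, SE 0.13, edgeR adjusted p = 0.000795). The call in WT was lost with DESeq2 (adjusted p = 0.0602), after thinning to equal depth (edgeR adjusted p = 0.0563), when only the 6 WT libraries were fitted (edgeR adjusted p = 0.0600) and without the WT M0 library of mouse 3 or the WT M2 library of mouse 1 or 2 (edgeR adjusted p = 0.107, 0.107 and 0.108). Egr3, a related gene known from lymphocytes and muscle spindles, had 0 to 6 counts per library (in WT 3, 3 and 6 in M0 and 0, 3 and 3 in M2, and in KO 4, 3 and 3 in M0 and 2, 3 and 0 in M2). It was not tested, and a difference was not detectable at this depth.

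Ier2, a small nuclear protein of the immediate-early response, was at 23.7, 24.4 and 31.6 CPM in WT M0 and at 21.03, 19.4 and 19.1 CPM in WT M2. In KO it was at 28.1, 33.3 and 29.1 CPM in M0 and at 26.0, 21.2 and 18.03 CPM in M2. Again the M2 libraries were lower without overlap. The log2 fold change was -0.42 (SE 0.14, edgeR adjusted p = 0.0227) in WT and -0.48 (SE 0.13, edgeR adjusted p = 0.00759) in KO. The call in WT was lost without the WT M0 library of mouse 3 (edgeR adjusted p = 0.0904) or the WT M2 library of mouse 2 or 3 (edgeR adjusted p = 0.0676 and 0.0652).

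**Figure D1:**
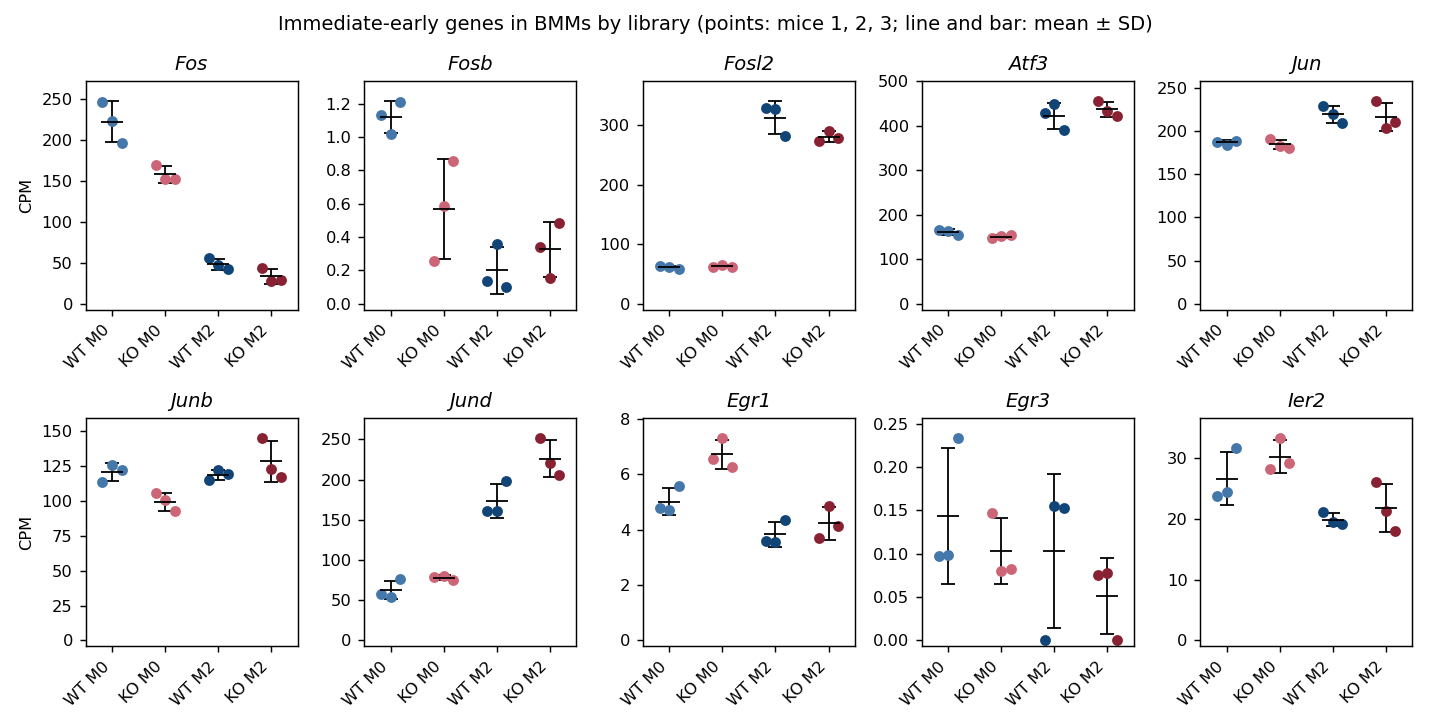
CPM of the 10 immediate-early genes in M0 and M2 macrophages of WT and KO mice, with a point for each library (mice 1, 2 and 3 from left to right) and lines with bars for means ± SD. Fos was lower in all M2 libraries (27.5 to 55.4 CPM) than in all M0 libraries (152 to 247 CPM), and Fosl2, Atf3 and Jund were higher in all M2 libraries.

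**Figure D2:**
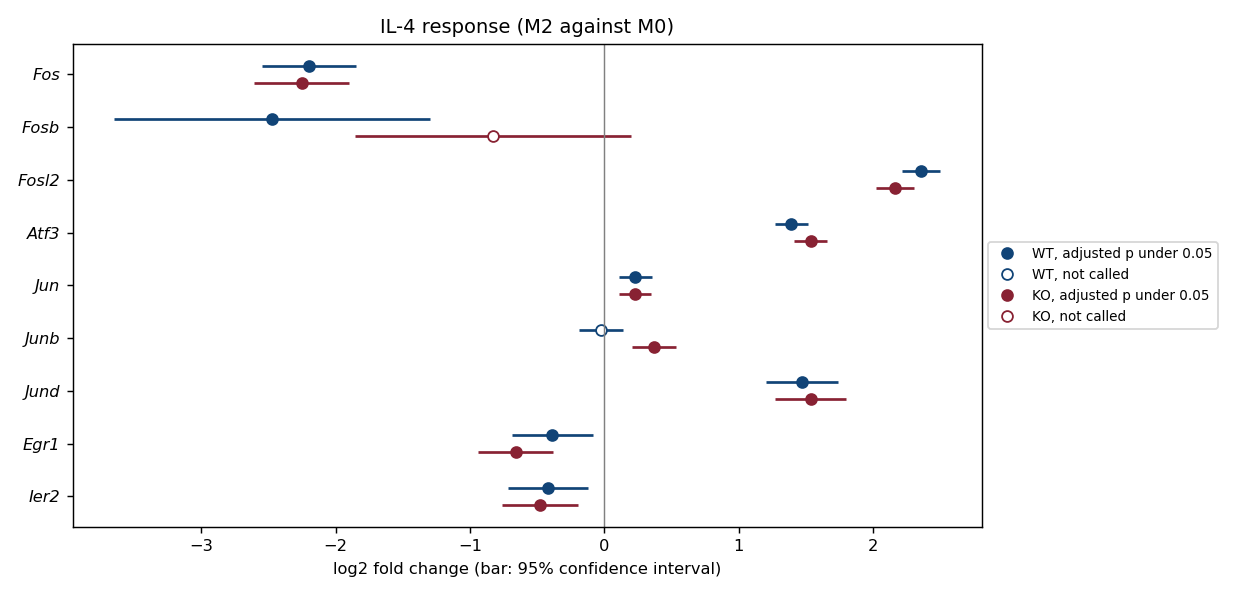
Log2 fold changes with IL-4 in WT (blue) and KO (red) macrophages with 95% confidence intervals from edgeR, with filled points at an adjusted p under 0.05. Fosl2, Atf3 and Jund lie between 1.39 and 2.36 and Fos near -2.2 in both genotypes, and Fosb in KO and Junb in WT were not called.

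Levels were compared between genes with TPM. In WT M0, Fos ranked first with 207 ± 29.9 TPM (mean ± SD, n = 3), followed by Atf3 (162 ± 14.1), Junb (124 ± 6.09), Jun (109 ± 3.53), Jund (40.2 ± 6.02), Ier2 (33.2 ± 4.15) and Fosl2 (19.1 ± 1.63). Egr1 was at 2.97 ± 0.19 TPM, and Fosb and Egr3 were below 1 TPM in each library. Only Jund and Ier2 were neighbours in this order whose ranges overlapped. Fos was thus above 94.1% of the genes tested in WT M0, and Egr1 above 19.8%.

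In KO M0, Atf3 (155 ± 6.85 TPM) and Fos (145 ± 11.9 TPM) led with overlapping ranges, and Jun (107 ± 4.07) and Junb (102 ± 7.57) also overlapped. After IL-4, Atf3 led clearly with 420.3 ± 34.9 TPM in WT and 423 ± 8.02 TPM in KO, above 97.0% of the genes tested in either genotype. In WT M2 it was followed by Jun, Junb, Jund and Fosl2 at 122 to 93.7 TPM, of which each overlapped with the next. In KO M2, Jund (137 ± 10.1), Junb (124 ± 10.2) and Jun (118 ± 4.79) overlapped in the same way, and Fosl2 was below them at 82.8 ± 5.13 TPM. Fos ranked sixth in both, at 43.3 ± 5.98 TPM in WT and 29.1 ± 6.91 TPM in KO, where its range overlapped with that of Ier2 (25.5 ± 3.97 TPM).

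**Figure D3:**
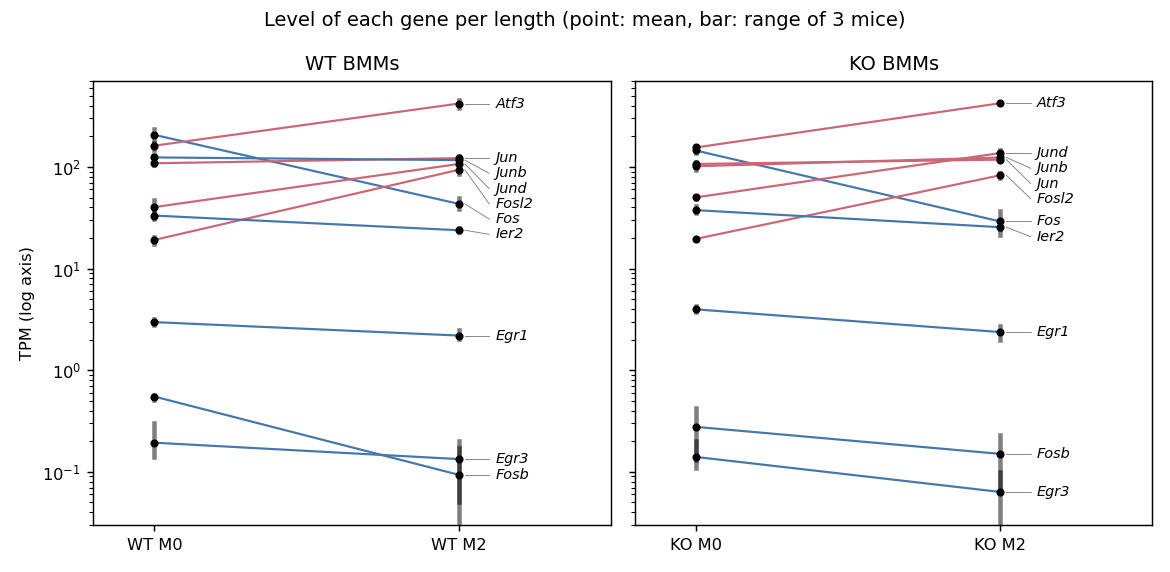
Mean TPM (log axis) of the 10 genes in M0 and M2 macrophages of WT (left) and KO (right) mice, with the range of 3 libraries as a bar that is cut off at the axis where a library was at 0, and red (higher in M2) or blue (lower in M2) lines between the means, without regard to the test. Fos led in WT M0 with 207 TPM, and Atf3 led in M2 of both genotypes.

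The composition of the FOS family is given as a share of the summed TPM of Fos, Fosb, Fosl1 and Fosl2. In WT M0, Fos made up 81.2%, 78.9% and 77.0% of it in the 3 libraries and Fosl2 7.08%, 7.35% and 7.61%. In WT M2, Fos made up 29.6%, 26.6% and 27.3%, and Fosl2 58.7%, 62.4% and 60.2%. The order of both genes was thus reversed in every WT library. In KO, the share of Fos was 73.4% to 76.9% in M0 and 19.6% to 28.2% in M2, and that of Fosl2 was 9.46% to 10.7% and 59.0% to 67.1%. Fosl1, the FOS family gene outside the list, stayed between 10.8% and 15.7% in all libraries, and the family summed to 228 to 289 TPM (WT) and 184 to 207 TPM (KO) in M0, and to 140 to 169 TPM (WT) and 125 to 131 TPM (KO) in M2.

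The ratio of Fosl2 to Fos in TPM, which was chosen after these values were seen, was 0.0930 ± 0.00574 in WT M0 and 2.18 ± 0.182 in WT M2, and 0.135 ± 0.0117 in KO M0 and 2.97 ± 0.759 in KO M2 (SD, n = 3). It was higher in all M2 than in all M0 libraries of each genotype (exact permutation test, two-sided, p = 0.1 in each, adjusted p = 0.114 over the 8 comparisons of this and the next ratio). Between genotypes it was higher in all KO than in all WT libraries in M0 (exact permutation p = 0.1), whereas the values overlapped in M2 (exact permutation p = 0.3, adjusted p = 0.3). With 3 libraries per group 0.1 is the smallest p this test can give. For this and the next ratio, the test did not use that M0 and M2 libraries came from the same mice.

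In the JUN family the sum of Jun, Junb and Jund was 271 to 275 TPM (WT) and 245 to 271 TPM (KO) in M0, and 340.2 to 356 TPM (WT) and 358 to 405 TPM (KO) in M2. Jund made up 12.9% to 17.2% of it (WT) and 18.8% to 19.9% (KO) in M0, and 29.0% to 34.4% (WT) and 35.4% to 36.8% (KO) in M2. Its share was thus higher in M2, and higher in KO than in WT in both treatments without overlap. The ratio of Jund to Jun was 0.371 ± 0.0650 (WT) and 0.469 ± 0.0164 (KO) in M0, and 0.881 ± 0.149 (WT) and 1.16 ± 0.0626 (KO) in M2 (SD, n = 3, exact permutation p = 0.1 and adjusted p = 0.114 for each of the 4 comparisons).

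Among the EGR genes, Egr1 made up 33.7% to 36.8% of the summed TPM of Egr1, Egr2, Egr3 and Egr4 in WT M0 and 42.6% to 49.4% in KO M0. In M2 its share was 1.53% to 2.27% in WT and 1.45% to 2.01% in KO. The sum itself went from 8.07 to 8.77 TPM in WT M0 to 109.5 to 134 TPM in WT M2, and from 7.49 to 9.85 TPM in KO M0 to 118 to 141 TPM in KO M2. Egr2, an EGR factor induced by IL-4, was at 6.57 to 6.97 CPM in WT M0 and 153 to 183 CPM in WT M2, and thus rose by 4.64 on the log2 scale (SE 0.10, edgeR adjusted p = 5.27e-12). In KO it rose by 4.92 (SE 0.10, edgeR adjusted p = 2.83e-12), from 5.37 to 6.61 CPM in M0 to 165 to 197 CPM in M2.

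**Figure D4:**
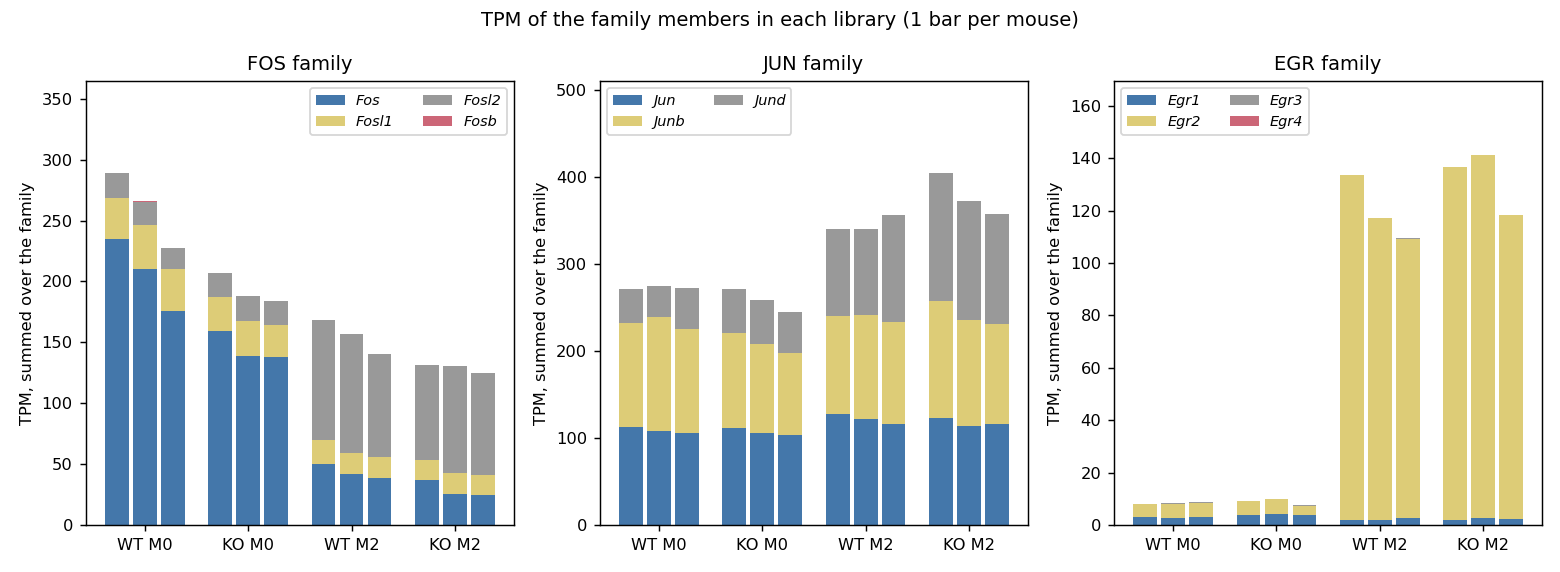
TPM of the FOS, JUN and EGR family genes stacked in each library, with 1 bar per mouse in each of the 4 groups. Fos made up most of the FOS bars in M0 (73.4% to 81.2%) and Fosl2 in M2 (58.7% to 67.1%), Jund accounts for most of the increase of the JUN bars, and Egr2 for nearly all of the EGR bars in M2.

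Between KO and WT in M0, 1 of the 9 genes tested was called, Junb, which was lower in KO, beside 9.78% of all genes tested (4.27% lower and 5.50% higher). An unadjusted p under 0.05 was found for 5 of the 9 and for 25.3% of all genes. The median log2 fold change of the 9 genes was -0.02, and that of all genes tested was 0.00 to 2 decimals. The 3 KO libraries (92.5 to 106 CPM) were below the 3 WT libraries (114 to 126 CPM), and the log2 fold change was -0.28 (SE 0.08, edgeR adjusted p = 0.0373). The call of Junb was kept under all 10 alternatives to the test, scaling, filter, unit, block or depth (adjusted p from 0.0130 to 0.0422, with edgeR, DESeq2 or limma). Leaving out a library ended it in 5 of 6 fits, with an edgeR adjusted p of 0.146 without WT mouse 2, 0.0647 without WT mouse 3, 0.0518 without KO mouse 1, 0.105 without KO mouse 2 and 0.149 without KO mouse 3. The groups did not overlap for 5 of the 9 genes, compared with 31.1% of all genes. These were Fos, Fosb, Junb, Egr1 and Atf3.

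Fos had a log2 fold change of -0.49 between KO and WT in M0 (SE 0.15, 95% confidence interval -0.82 to -0.17, edgeR adjusted p = 0.0572), with all KO libraries (152 to 169.9 CPM) below all WT libraries (197 to 247 CPM). It passed the threshold with DESeq2 (adjusted p = 0.0209), without the filter on low counts (edgeR adjusted p = 0.0258), at equal depth (edgeR adjusted p = 0.0482), with only the 6 M0 libraries in the fit (edgeR adjusted p = 0.0165) and without WT mouse 3 (edgeR adjusted p = 0.0372).

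Egr1 had the opposite sign in M0, with 4.70 to 5.57 CPM in WT and 6.28 to 7.32 CPM in KO. Its log2 fold change was 0.43 (SE 0.13, 95% confidence interval 0.15 to 0.70, edgeR adjusted p = 0.0555), and it passed the threshold with DESeq2 (adjusted p = 0.0455), at equal depth (edgeR adjusted p = 0.0406) and without WT mouse 3 (edgeR adjusted p = 0.0371). Jund was at 0.32 (SE 0.12, edgeR adjusted p = 0.119), with WT mouse 3 at 75.9 CPM inside the KO range, and passed without that library (0.48, edgeR adjusted p = 0.0105). Fosb was at -0.94 (SE 0.42, edgeR adjusted p = 0.183). For Fosl2, Jun, Atf3 and Ier2 the log2 fold changes were 0.04, -0.02, -0.09 and 0.19, with 95% confidence intervals of -0.10 to 0.18, -0.14 to 0.10, -0.21 to 0.03 and -0.10 to 0.47.

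In M2, 0 of the 9 genes were called by edgeR between KO and WT, beside 2.68% of all genes called (1.21% higher and 1.46% lower). An unadjusted p under 0.05 was found for 3 of the 9 and for 20.3% of all genes. DESeq2 called 2, Fos and Jund, beside 702 of the 12197 genes it tested. The median log2 fold change was 0.11. Fos was at -0.55 (SE 0.16, 95% confidence interval -0.90 to -0.19, edgeR adjusted p = 0.0940). KO mouse 1 with 44.2 CPM lay among the WT values of 42.2 to 55.4 CPM, and the other KO mice, at 27.5 and 28.3 CPM, lay below them. Fos passed with DESeq2 (adjusted p = 0.0199), without the filter (edgeR adjusted p = 0.0445) and without KO mouse 1 (-0.79, edgeR adjusted p = 0.00847). Jund was the only gene whose groups did not overlap in M2, as for 24.8% of all genes, with 160.5 to 198 CPM in WT and 206 to 252 CPM in KO. Its log2 fold change was 0.39 (SE 0.12, edgeR adjusted p = 0.102), and it passed with DESeq2 (adjusted p = 0.0319) and without the filter (edgeR adjusted p = 0.0431).

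The other genes in M2 had log2 fold changes between KO and WT of -0.16 for Fosl2, 0.11 for Junb, 0.15 for Egr1, 0.05 for Atf3, 0.12 for Ier2, -0.02 for Jun and 0.70 for Fosb. The 95% confidence interval of Fosl2 was -0.29 to -0.02 (edgeR adjusted p = 0.185). That of Fosb, at 2 to 18 counts per library, spanned -0.64 to 2.04. KO mouse 1 had the highest value of the KO M2 group for 6 of the 9 genes.

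**Figure D5:**
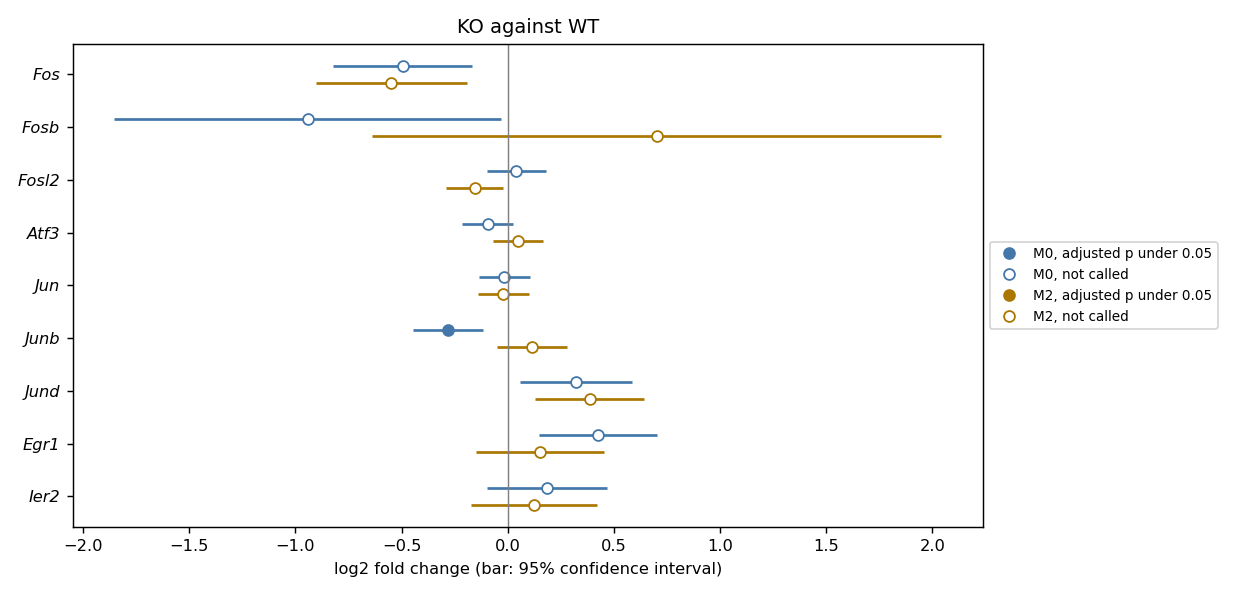
Log2 fold changes of KO against WT in M0 (blue) and M2 (orange) macrophages with 95% confidence intervals from edgeR, with filled points at an adjusted p under 0.05. Junb in M0 is the only filled point (-0.28), and Fos lies at -0.49 and -0.55.

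Whether the response to IL-4 differed between genotypes was tested as an interaction. Of the 9 genes 0 were called by edgeR, beside 3.24% of all genes called (1.11% higher and 2.13% lower). At an unadjusted p under 0.05 there were 3 of the 9 and 17.8% of all genes. DESeq2 called 1 of the 8 genes it tested, Junb, beside 820 of 11400 over all genes. The response of Junb was higher in KO by a log2 difference of 0.39 (SE 0.11, 95% confidence interval 0.16 to 0.63, edgeR adjusted p = 0.0712), and all 3 KO mice (0.29 to 0.46) exceeded all 3 WT mice (-0.05 to 0.01). With the mouse as a block, which uses that both libraries of a mouse varied together, the difference was called (0.39, edgeR adjusted p = 0.00661). This block called 1003 of the 12846 genes tested. It was also called with DESeq2 (adjusted p = 0.0207), without the filter on low counts (edgeR adjusted p = 0.0489) and without the M0 library of WT mouse 1 (edgeR adjusted p = 0.0467).

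The intervals of the difference show what the data leave room for in the other genes. They were -0.53 to 0.43 for Fos, -0.39 to -0.0027 for Fosl2, -0.18 to 0.17 for Jun, -0.30 to 0.43 for Jund, -0.03 to 0.31 for Atf3, -0.68 to 0.14 for Egr1 and -0.47 to 0.35 for Ier2. Fosb, with a difference of 1.65 (SE 0.74, edgeR adjusted p = 0.272), had an interval of 0.03 to 3.26.

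The pathway around these genes was described with lists that were chosen with earlier results of these data known. Their counts are to be read against the shares of all genes called, which were 50.0% with IL-4 in WT, 52.8% with IL-4 in KO, 9.78% between genotypes in M0 and 2.68% in M2. The median log2 fold changes of the 7 lists lay between -0.28 and 0.46 with IL-4 in WT, between -0.37 and 0.65 in KO, and between genotypes from -0.28 to 0.06 in M0 and from -0.17 to 0.04 in M2, beside -0.01, 0.01, -0.0007 and -0.0009 over all genes. Other AP-1 and bZIP partners were called with IL-4 in 9 of 10 cases in WT (5 higher, 4 lower) and in 8 of 10 in KO (4 higher, 4 lower). Batf3, a dimer partner of JUN proteins, rose on the log2 scale by 3.65 in WT (edgeR adjusted p = 1.19e-08) and 3.72 in KO (edgeR adjusted p = 6.50e-09). Batf and Batf2, related factors, rose by 0.89 and 1.18 in WT (edgeR adjusted p = 0.000122 and 0.000236) and by 1.71 and 1.18 in KO (edgeR adjusted p = 2.78e-07 and 0.000158). Jdp2, a repressor of AP-1, fell by 2.16 in WT (edgeR adjusted p = 6.05e-09) and by 1.53 in KO (edgeR adjusted p = 8.91e-08). Fosl1, which encodes FRA-1, fell by 0.87 in WT (edgeR adjusted p = 4.37e-07) and by 0.65 in KO (edgeR adjusted p = 4.21e-06).

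In the genotype comparison of M0, 2 of the 10 partners were called, both lower, beside 9.78% of all genes. Jdp2 was at 59.2 to 77.2 CPM in WT and 43.1 to 56.0 CPM in KO (log2 fold change -0.49, edgeR adjusted p = 0.00956), and Fosl1 was at 29.2 to 32.4 and 24.2 to 26.8 CPM (-0.30, edgeR adjusted p = 0.0163). The call of Jdp2 was lost in 1 and that of Fosl1 in 3 of the 6 fits without a library. In M2, 0 of 10 were called by edgeR and 1 had an unadjusted p under 0.05. Of 4 EGR genes and NAB corepressors outside the list, Egr4 was too low to be tested, and the 3 tested were called with IL-4 in both genotypes: Egr2 (above) and Nab2 rose (Nab2 by 0.46 in WT and 0.65 in KO, edgeR adjusted p = 0.000266 and 1.19e-05), and Nab1 fell by 0.66 and 0.71 (edgeR adjusted p = 1.23e-07 and 5.41e-08). Of these 3, Nab2 was lower in KO in M0 (-0.29, edgeR adjusted p = 0.0358), a call that 5 of 6 such fits lost, and in M2 0 were called, with 1 at an unadjusted p under 0.05.

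Upstream of AP-1, 18 of 25 MAP kinases and SRF, TCF and CREB factors were called with IL-4 in WT (9 higher, 9 lower) and 16 in KO (6 higher, 10 lower). Elk3, a TCF that can repress SRF targets, fell by 1.76 in WT (edgeR adjusted p = 6.42e-11) and by 1.70 in KO (edgeR adjusted p = 7.22e-11), and Mrtfb, an SRF coactivator, rose by 1.03 (edgeR adjusted p = 3.73e-05) and 0.67 (edgeR adjusted p = 0.000892), as did the related Mrtfa by 0.79 (edgeR adjusted p = 6.54e-07) and 0.61 (edgeR adjusted p = 5.33e-06). Map2k6, a kinase of p38, fell by 0.73 (edgeR adjusted p = 0.00542) and 1.42 (edgeR adjusted p = 2.39e-05). Feedback inhibitors of MAP kinase signalling were called in 9 of 15 cases in WT (2 higher, 7 lower) and 10 of 15 in KO (3 higher, 7 lower), beside 50.0% and 52.8% of all genes. Spry1 was at 0.131 to 0.740 CPM in WT M0 and at 0 to 0.103 CPM in WT M2. In KO it was at 0.257 to 0.443 CPM in M0 and 0.0518 to 0.151 CPM in M2. Its log2 fold change was -3.02 in WT (edgeR adjusted p = 0.0100) and -1.82 in KO (edgeR adjusted p = 0.0390), the latter a call that 5 of 6 fits without a library lost. Spry1 passed the filter on low counts only through M0 libraries, so that the sizes of these changes are uncertain and not ranked. Spry2, like Spry1 an inhibitor of receptor tyrosine kinase signalling, fell by 1.88 in WT (edgeR adjusted p = 4.03e-09) and 1.68 in KO (edgeR adjusted p = 6.55e-09). Dusp1, an immediate-early phosphatase of MAP kinases, fell by 1.56 (edgeR adjusted p = 3.82e-05) and 1.97 (edgeR adjusted p = 3.80e-06).

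Between genotypes in M0, 3 of 25 upstream genes were called (2 higher, 1 lower), or 12.0% beside 9.78% of all genes. These were Mapk14, which encodes p38α (log2 fold change 0.31, edgeR adjusted p = 0.00569), Map2k3, a further kinase of p38 (-0.32, edgeR adjusted p = 0.00189), and Mrtfa (0.27, edgeR adjusted p = 0.0248, lost in 5 of 6 fits without a library). Of the 15 feedback inhibitors 0 were called by edgeR in M0 and 3 had an unadjusted p under 0.05. In M2, where 2.68% of all genes were called, 1 upstream gene was lower, Rps6ka3 (-0.31, edgeR adjusted p = 0.0125), a kinase that phosphorylates CREB, and 1 feedback inhibitor was higher, Dusp7 (0.22, edgeR adjusted p = 0.0285). The call of Rps6ka3 was lost in 3 and that of Dusp7 in 4 of 6 fits without a library.

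Of other rapid-response genes, 12 of 31 were called between genotypes in M0 (7 higher, 5 lower), beside 9.78% of all genes. Rhob, a small GTPase, was higher in KO (log2 fold change 0.85, edgeR adjusted p = 0.000107), as were Zfp36l1 (0.53, edgeR adjusted p = 0.00462) and Klf6 (0.42, edgeR adjusted p = 0.00265). Zfp36, which like Zfp36l1 binds AU-rich elements and promotes mRNA decay, was lower (-0.44, edgeR adjusted p = 0.00393), as were Gadd45b (-0.78, edgeR adjusted p = 0.000707) and the NF-κB inhibitor Tnfaip3 (-0.48, edgeR adjusted p = 0.000707). These 6 calls were kept in all 6 fits without a library. The other 6, named after their values were seen, were each lost in some of them: Sgk1 in 1, Btg1 in 2, Arc in 3, Klf2 and Pim1 in 4 and Nfkbia in 5. In M2, 2 of 31 were called, Pim1 (0.48) higher and Klf10 (-0.21) lower, named after their values were seen. The call of Pim1 was lost in 4 and that of Klf10 in 5 of 6 fits without a library. With IL-4, 21 of 31 were called in WT (16 higher, 5 lower) and 24 in KO (15 higher, 9 lower), with log2 fold changes of 2.90 and 2.85 for Nfil3 (edgeR adjusted p = 1.33e-11 and 1.36e-11), 3.30 and 2.54 for Zfp36l1 (edgeR adjusted p = 3.38e-11 and 1.96e-10) and 2.38 and 2.94 for Ier5l (edgeR adjusted p = 3.54e-08 and 4.49e-09).

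Genes known as targets of AP-1 or EGR factors were called in M0 in 6 of 16 cases, 1 higher and 5 lower in KO, beside 9.78% of all genes. The inflammatory genes Icam1 (log2 fold change -0.78, edgeR adjusted p = 9.71e-05), Tnf (-0.68, edgeR adjusted p = 0.000595) and Ptgs2 (-0.85, edgeR adjusted p = 0.00143) kept their calls in all 6 fits without a library, while that of Mmp13 was lost in 5 and that of Spp1 in 4 of them. All of these genes have other regulators as well. In M2, 2 of 16 were called (1 higher, 1 lower), with Plaur higher (0.37, edgeR adjusted p = 0.0229), a call that 5 of 6 fits without a library lost. With IL-4, 14 of 16 were called in WT (9 higher, 5 lower) and 13 in KO (7 higher, 6 lower). Hbegf, an EGF receptor ligand, rose by 5.85 in WT (edgeR adjusted p = 5.95e-12) and 6.16 in KO (edgeR adjusted p = 4.82e-12), the protease gene Mmp13 rose by 2.97 (edgeR adjusted p = 2.28e-09) and 2.39 (edgeR adjusted p = 1.28e-08), while Tnf fell by 2.33 (edgeR adjusted p = 5.48e-10) and 1.51 (edgeR adjusted p = 1.96e-08). F3, the tissue factor gene, was below 0.3 CPM in M0 and rose by 2.21 in WT (edgeR adjusted p = 0.0113), lost in 1 of 6 fits without a library, and by 3.11 in KO (edgeR adjusted p = 0.000758). F3 reached 0.409 to 1.03 CPM in WT M2 and 0.776 to 1.17 CPM in KO M2. It passed the filter on low counts only through M2 libraries, so that the sizes of these changes are uncertain.

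Heat shock genes, which like immediate-early genes can be induced by handling of cells, were called in M0 in 1 of 11 cases (Hspa8, 0.27, edgeR adjusted p = 0.0314, lost in 4 of 6 fits without a library), and in M2 0 were called by edgeR, with 5 at an unadjusted p under 0.05. With IL-4, 9 of 11 were called in WT (7 higher, 2 lower) and 8 in KO (5 higher, 3 lower). Hsph1 rose by 1.48 in WT (edgeR adjusted p = 9.90e-08) and 1.19 in KO (edgeR adjusted p = 6.00e-07), and Hspe1 by 0.69 and 0.67 (edgeR adjusted p = 3.37e-06 and 3.33e-06). Hspa1b, a stress-inducible HSP70 gene, fell by 0.68 in WT (edgeR adjusted p = 0.0458), lost in 3 of 6 such fits, and by 1.57 in KO (edgeR adjusted p = 0.000202). The part of handling in the values of Fos, Egr1 and the other genes was not tested.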

How the data were processed

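Per the labels, poly(A) RNA was sequenced with directional libraries (reads of 75 nt). With the Grape-nf pipeline on GRCm38, the authors made an expected count and 2 TPM values (the plain estimate and the posterior mean) for every gene of a library. The counting tool and annotation are not given in the sources used here. Effective and total gene lengths stand beside them. The 4 deposited comparison tables hold the authors' DESeq2 log2 fold changes, mean counts, test statistics and p-values, which were not used. Gene symbols were read from these tables and, for IDs without one there, from a reference table of gene names. Symbols were found for 37570 genes.

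Groups came from the labels. The genes and lists were chosen with earlier results of these data known. Expected counts were rounded, filtered with filterByExpr (12846 genes kept), normalized by TMM and fitted with edgeR 4.0.16 (R 4.3.3), with 1 coefficient per group over 12 libraries. A gene was called at a Benjamini-Hochberg adjusted p under 0.05. The biological coefficient of variation was 8.08%. Replicates are separate mice. Libraries of 1 mouse varied together (correlation of deviations from the group means 0.103 to 0.364 in 6 pairs), so that the numbers pair M0 with M2, whereas between genotypes it was -0.068 to 0.040. In simulated counts of 12846 genes with 200 changed by a log2 of 1, edgeR recovered 99% for the difference between the responses and 100% for each other comparison. The changed genes were drawn only from genes with higher counts, and every gene had the same spread. Smaller changes, and changes of genes with counts as low as those of Fosb, were not simulated.

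All 10 genes are named, and from the other lists genes called between genotypes or in the difference (at most 6 per list, by adjusted p) and the 3 with the largest called change with IL-4. Pim1, Klf10, Nfkbia, Sgk1, Btg1, Arc and Klf2 were named outside this rule. The values of 1 gene of the target list are not reported here. Cyr61, Mkl1 and Mkl2 were matched through RefSeq synonyms. Alternatives were DESeq2 1.42.0, RLE size factors, no filter, a mean of at least 1 CPM, limma 3.58.1 on log2(TPM + 1), on log2(TPM + 0.1) and on the posterior mean TPM, thinning to 20011771 counts, a replicate block (the mouse for the IL-4 comparisons and their difference, the replicate number between genotypes), only the 6 libraries of a comparison, and leaving out each library. Those for the other lists and for the ratios were added after the data were seen. Python 3.11.15 with pandas 2.3.3, numpy 2.4.6, scipy 1.17.1 and matplotlib 3.10.9 was used for summaries. Counting error is smallest in the deepest libraries, and confidence intervals are at 95%.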

Additional observations from a re-analysis of the deposited data

Results flagged for a closer look

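For 15 genes of the surrounding lists the response to IL-4 differed between KO and WT in the test of the difference itself (edgeR without a block on the mouse, adjusted over all genes), which none of the 9 AP-1 and EGR genes tested passed. These were 2 of 10 AP-1 and bZIP partners, 5 of 31 rapid-response genes, 3 of 25 upstream genes, 1 of 15 feedback inhibitors, 3 of 16 targets, 1 of 11 heat shock genes and 0 of 3 EGR and NAB genes (0 of the 3 also at an unadjusted p under 0.05), beside 3.24% of all genes tested. With the mouse as a block, the difference of Junb was called as well (edgeR adjusted p = 0.00661), beside 1003 of 12846 genes. Values below are from the fit without this block. They are log2 fold changes with IL-4, and differences are KO minus WT. Batf (0.89 in WT, 1.71 in KO, difference 0.815, adjusted p = 0.0361), Gadd45b (0.75 and 1.54, difference 0.789, adjusted p = 0.0103), Tnfaip3 (0.16 and 0.61, difference 0.449, adjusted p = 0.0157) and Ptgs2 (1.18 and 2.02, difference 0.839, adjusted p = 0.0150) rose in both genotypes, and more in KO. The rise of Tnfaip3 in WT (adjusted p = 0.0417) was lost in 4 of 6 fits without a library, and its M0 and M2 values overlapped there. Jdp2 (-2.16 and -1.53, difference 0.627, adjusted p = 0.0429), Tnf (-2.33 and -1.51, difference 0.824, adjusted p = 0.00597), Icam1 (-1.27 and -0.35, difference 0.920, adjusted p = 0.00185) and Nfkbia (-1.44 and -0.91, difference 0.529, adjusted p = 0.0144) fell in both, and less in KO. Nfkbia encodes an NF-κB inhibitor and was named after its values were seen. Zfp36l1 (3.30 and 2.54, difference -0.768, adjusted p = 0.00755) and Rhob (1.44 and 0.82, difference -0.625, adjusted p = 0.0107) rose in both, and less in KO.

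The other 5 were called in 1 genotype or in opposite directions. Map2k3 fell in WT (-0.51) and was not called in KO (-0.05, difference 0.456, adjusted p = 0.00473). Mapk14 and Hspa8 rose in WT (0.28 and 0.41) and were not called in KO (-0.09 and -0.10), with differences of -0.362 (adjusted p = 0.0300) and -0.502 (adjusted p = 0.0183). Dusp7 was not called in WT (-0.06) and rose in KO (0.20, difference 0.252, adjusted p = 0.0480). Rps6ka3 rose in WT (0.21) and fell in KO (-0.26, difference -0.468, adjusted p = 0.00597). With each of the 12 libraries left out in turn, the differences of Gadd45b, Map2k3, Tnf, Ptgs2, Icam1, Nfkbia, Zfp36l1, Rhob and Rps6ka3 stayed called in all fits. The call was lost in 1 of 12 fits for Tnfaip3, 3 for Hspa8, 7 for Mapk14, 10 for Batf, 10 for Jdp2 and 11 for Dusp7.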

How the results depend on the processing

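Counts of AP-1 and EGR genes called with IL-4 were within 1.5 times under every alternative run (6 to 8 in WT and 8 in KO without single libraries). Between KO and WT in M0, where 1 was called, DESeq2 and equal depth called 3, and no filter, the replicate block and the fit of 6 libraries called 2 (0 to 3 without single libraries, which leaves fewer samples). Over all genes there, DESeq2 called 1549 of 12993 and equal depth 1066 of 12461. No filter called 1203 of 20576, the replicate block 1322 of 12846 and the fit of 6 libraries 967 of 12509. In M2, where 0 were called, DESeq2 and no filter called 2 and the replicate block 1 (0 to 1 without single libraries). Over all genes these 3 settings called 702 of 12197, 422 of 20576 and 413 of 12846. For the difference between the responses (0 called), DESeq2, no filter and the replicate block called 1 (0 to 1 without single libraries), beside 820 of 11400, 444 of 20576 and 1003 of 12846 over all genes. The cause of these differences was not tested. With the replicate number as a block between genotypes, Fos was called in M0 (-0.49, edgeR adjusted p = 0.00904) and in M2 (-0.56, edgeR adjusted p = 0.0191), although the number pairs no WT with a KO mouse; the block on the mouse, used for the IL-4 comparisons and their difference, changed only the difference of Junb (0.39, edgeR adjusted p = 0.00661). Of the values of single genes under the alternatives that keep all libraries, 417 stayed on their side of the threshold, 15 passed it, 3 missed it and 0 changed sign. Sign changes occurred without single libraries for values near 0 that were not called: Jun in M0 (-0.034 to 0.00012) and M2 (-0.083 to 0.020), Atf3 (-0.0039 to 0.10) and Ier2 (-0.016 to 0.24) in M2, Junb with IL-4 in WT (-0.065 to 0.012), and the differences of Fos (-0.30 to 0.070), Jun (-0.067 to 0.036), Jund (-0.10 to 0.17) and Ier2 (-0.21 to 0.058). All 40 group levels with RLE factors and 38 of 40 with posterior mean TPM stayed within 1 SD. Over all genes, the calls in M2 (344) became 702 with DESeq2, 165 with 6 libraries, and 70, 57 and 200 with limma on log2(TPM + 1), log2(TPM + 0.1) and posterior mean TPM. Those in M0 (1256) became 752, 700 and 755 with limma in the same order. Those of the difference (416) became 820 with DESeq2, 1003 with the replicate block and 113, 113 and 163 with limma. Without single libraries they ranged from 25 to 298 in M2 (25 without KO mouse 3, 34 without KO mouse 2 or WT mouse 2, 185 without WT mouse 1), from 461 to 1461 in M0 (461 without WT mouse 2, 528, 563 and 745 without KO mouse 2, 3 and 1) and from 183 to 643 for the difference, where the M0 library of WT mouse 2 (183), KO mouse 1 (212), 2 (210) or 3 (201), the M2 library of WT mouse 2 (193) or KO mouse 2 (267) or 3 (194), and the M0 library of WT mouse 1 (643) moved it by over 1.5 times. Depth limits Egr3 and Fosb.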
